A study of Mus musculus with 9 samples.

Results

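The motor neurons (MNs) of 2 dorsiflexor muscles of the mouse hindlimb were compared here, those of the extensor digitorum longus (EDL), a muscle that the study classes as resistant in spinal muscular atrophy (SMA), and those of the tibialis anterior (TA), which it classes as vulnerable. The comparison used the 3 EDL arrays and the 3 TA arrays of the 9 in the series, chosen by the muscle named in the title of each sample. The remaining 3 arrays, of gastrocnemius (GS) MNs, helped to set the spread between mice but did not enter the EDL-TA difference. The 9 mice were wild-type FVB animals from 1 litter, none of them an SMA model, although the design text of the series speaks of an SMA background. At 14 days of age each mouse received WGA-HRP, a peroxidase-coupled lectin that travels from nerve terminals to their cell bodies, in 1 type of muscle of both hindlegs (1 µl for EDL, 3 µl for TA and GS). The cords were taken 48 h later, the stained MNs of each animal were collected by laser capture, and their amplified RNA was hybridised to 1 Affymetrix array per mouse. Every array is therefore 1 animal. The labels give 20 µm sections of cervical cord, whereas both muscles are hindlimb muscles and the study's text places the cell bodies in the lumbar cord.

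The TA and the EDL lie side by side in the front compartment of the leg, are both supplied by the deep fibular nerve and both lift the foot, the EDL by way of the toes. The neurons of each muscle form a cluster in the lateral motor column of the lumbar cord, called a motor pool. Motor pools differ in their Hox code, surface proteins and mix of fast and slow neurons. SMA is caused by loss of the SMN protein, which builds the protein rings of splicing RNAs, and some motor pools lose their terminals much earlier than others.

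Values are log2 signals of transcript clusters, the probe groups the array uses in place of genes, so that a difference of 1 is a doubling. Across the 6 arrays the median signal lay between 6.01 and 6.14. The arrays TA M0 and TA M1 stood apart from the rest. On the first principal component of the 6 arrays (65.5% of the variance), the EDL arrays scored from -56.0 to -45.4, TA M3 scored -1.68, TA M0 68.0 and TA M1 89.0. The 95th percentile of the negative-control probe sets, a measure of signal without a matching transcript, was 9.62 to 9.74 on the EDL arrays, 10.1 on TA M3 and at least 10.9 on TA M0 and TA M1. The share of clusters above that level was 10.2% to 10.8% on the EDL arrays, 8.89% on TA M3, 6.03% on TA M0 and 5.95% on TA M1. TA values were also more scattered, with a median SD over clusters of 0.147 in TA and 0.081 in EDL. The TA mice have lower numbers than all EDL and GS mice, and a difference in handling that followed the numbers cannot be told apart from the pool. For some genes and lists, results are therefore also given with TA M3 as the only TA array. That fit assumes that TA M3 varies like the other pools. Many of the calls given without it did not hold in it. The sexes were also unevenly spread, since Xist, the RNA that silences an X chromosome in females, was at 6.03 on EDL M11 and between 13.22 and 13.43 on the other 5 arrays, while the Y-linked Kdm5d was at 7.26 on EDL M11 and between 5.26 and 5.43 on the others. In such captured tissue, fewer cells of a kind and less RNA per cell cannot be told apart.

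**Figure D1:**
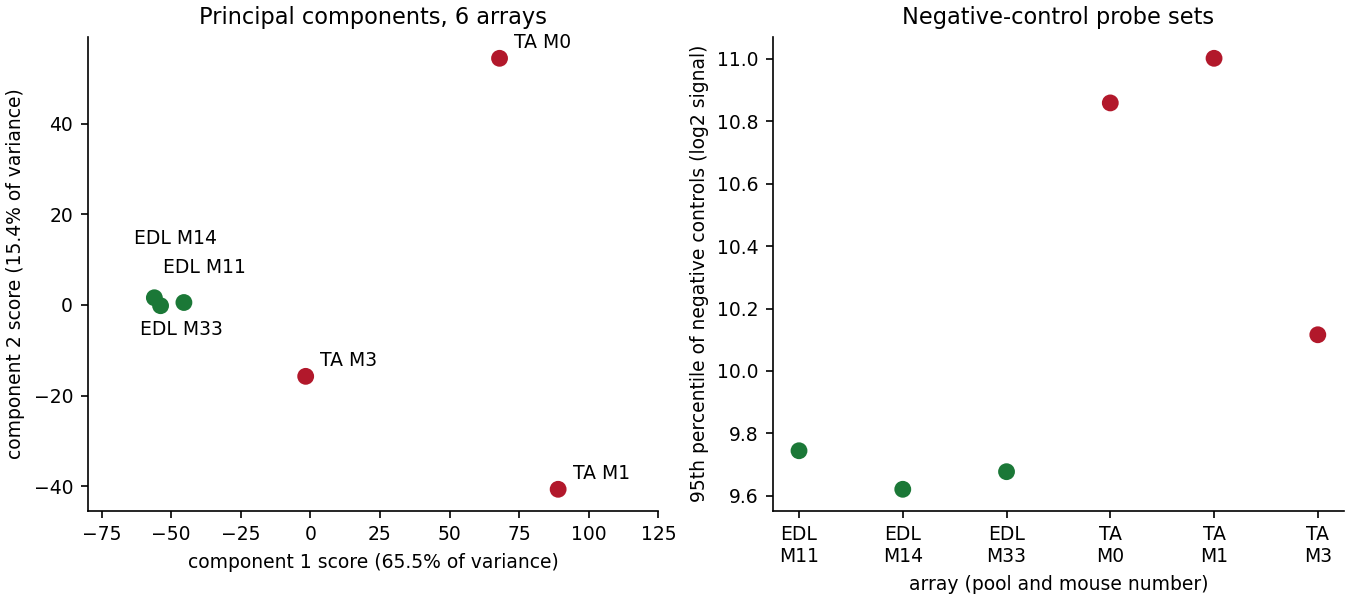
The left panel plots the scores of the 6 arrays on the first and second principal components (each with its percent of the variance), and the right panel the 95th percentile of the negative-control probe sets of each array in log2 signal. The EDL arrays (green) lie together at scores from -56.0 to -45.4 and 9.62 to 9.74, TA M3 (red) lies between, and TA M0 and TA M1 (red) lie farthest out on both.

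At an adjusted p under 0.05, 3351 of the 65956 clusters tested differed between the pools (5.08%), 1884 higher in EDL (2.86%) and 1467 lower (2.22%). All 3351 had EDL and TA values that did not overlap, whereas of all clusters 9.23% lay wholly higher and 14.5% wholly lower in EDL. Among the 30098 named genes, 1724 differed (5.73%), 1434 higher in EDL (4.76%) and 290 lower (0.964%). The kinds of transcript differed with the direction. Of the named genes higher in EDL, 562 were protein-coding and 840 were pseudogenes, gene copies whose probes can also read the transcript of the parent gene. Of those lower in EDL, 176 were protein-coding, 72 were small nucleolar, small nuclear or micro RNAs and 23 were pseudogenes. Clusters with no gene symbol made up 16.6% of the clusters higher in EDL and 76.8% of those lower, against 50.3% of all clusters.

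These counts rest on how the spread was estimated and on single mice. With the EDL and TA arrays alone setting the spread, 4 clusters were called (0.00606%), 3 higher in EDL (0.00455%) and 1 lower (0.00152%). A single named gene was among them (0.00332% of named genes), the predicted gene Gm11223 (adjusted p = 0.0464, limma). All 3351 clusters had an unadjusted p under 0.05 in that fit. Over all clusters 4964 higher and 7102 lower in EDL passed that threshold there. The 3351 were called on the same EDL and TA values, so their passing it is not separate support for the calls. With TA M3 as the only TA array, 1199 clusters were called (1.82%), 691 higher in EDL (1.05%) and 508 lower (0.77%), of which 664 were among the 3351, and 669 named genes (2.22%), 485 higher (1.61%) and 184 lower (0.611%). Leaving out 1 EDL mouse left 201 (M33), 273 (M14) or 483 (M11) calls, leaving out 1 GS mouse left 967 (M30), 1231 (M13) or 1957 (M31), and leaving out TA M0 or TA M1 left 1450 or 1501. Without TA M3 the count was 10470. The calls of 165 clusters, 117 higher and 48 lower in EDL, held whichever of the 9 mice was left out. The balance of directions at an unadjusted p under 0.05 turned with the scaling. It was 6062 clusters up and 9004 down in EDL with the values as deposited, but 9780 up and 6103 down with each array centred on its median. Among the adjusted calls the split was 2708 up and 1438 down after centring.

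**Figure D2:**
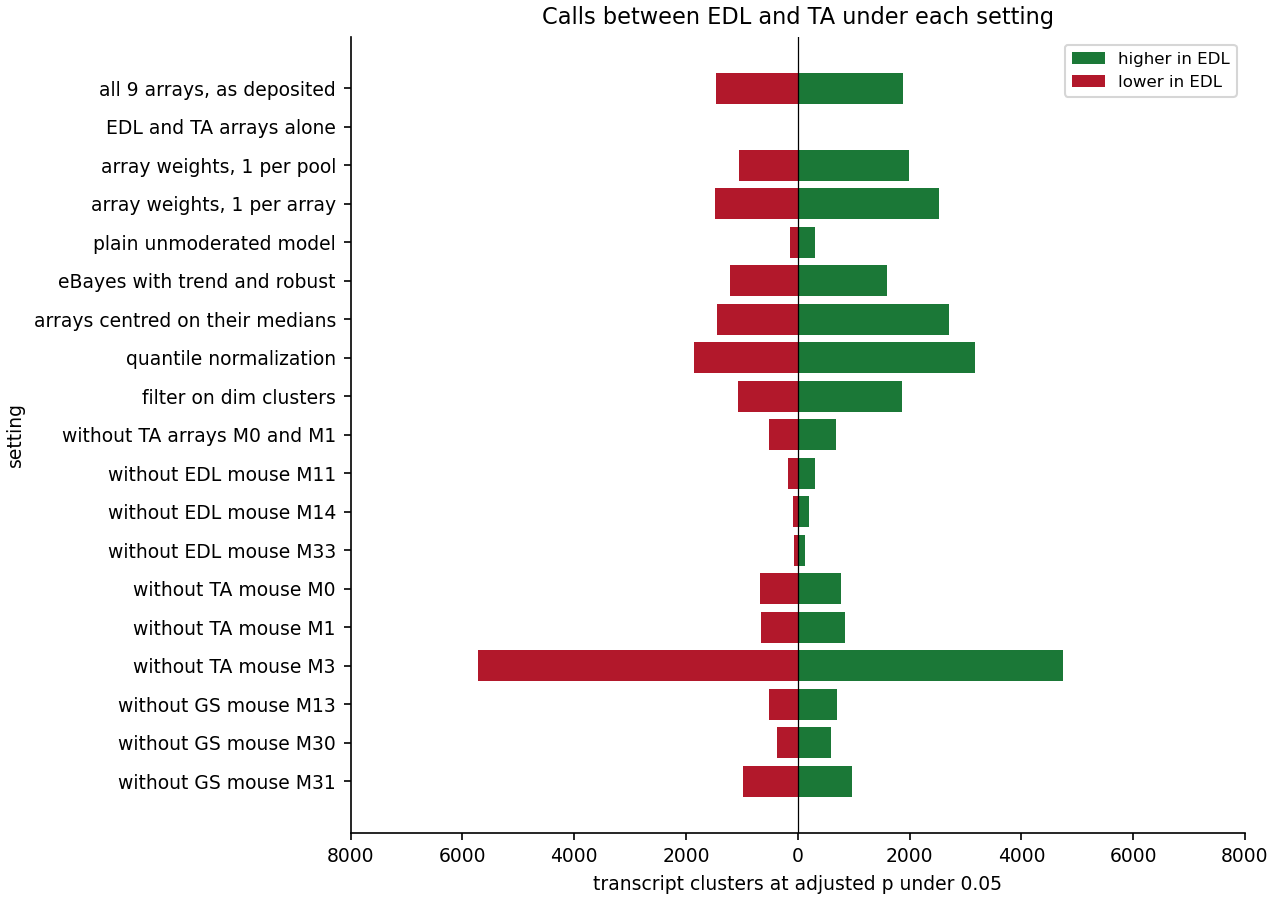
Bars give the number of transcript clusters at an adjusted p under 0.05 (x axis), higher in EDL to the right and lower in EDL to the left, for each setting of the fit (y axis). The total falls from 3351 to 4 when only the EDL and TA arrays set the spread and rises to 10470 without TA M3.

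Among genes with regular names, and with small nucleolar, nuclear and micro RNAs set aside, the largest rises in EDL above 10.2, the 95th percentile of the negative controls over the arrays, were those of 2 Y RNAs, small non-coding RNAs that bind the Ro protein. Rny3 (chromosome 6) read 15.57, 15.89 and 16.12 on the EDL arrays M11, M14 and M33 and 11.68, 10.21 and 13.10 on the TA arrays M0, M1 and M3. The lowest EDL value lay above the highest TA value. The difference was 4.20 (SE 0.64, adjusted p = 0.0209), a ratio of 18.4, and 2.76 to TA M3 alone (adjusted p = 0.0403). Rny1, of the same chromosome, differed by 3.69 (SE 0.63, adjusted p = 0.0256) and by 2.28 to TA M3, where the call was lost (adjusted p = 0.0666). The third was Lxn (chromosome 3), which encodes latexin, an inhibitor of carboxypeptidases. It read 13.81, 13.33 and 13.56 in EDL and 10.38, 9.10 and 11.48 in TA, a difference of 3.24 (SE 0.52, adjusted p = 0.0232), and 2.08 to TA M3 (adjusted p = 0.0276). In all 3 genes TA M1 was lowest and TA M3 nearest to EDL. The calls of Rny3, Rny1 and Lxn were lost in 5, 6 and 6 of the 9 fits that left out 1 mouse.

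The other large rises named by size were in genes of various roles. Psmb1, a beta subunit of the proteasome core, rose by 2.04 (SE 0.45, adjusted p = 0.0496) and Pomp, the chaperone that assembles that core, by 1.78 (SE 0.25, adjusted p = 0.0167). Ndufb9 and Ndufa2, subunits of respiratory complex I, rose by 1.85 and 1.74. Fdps and Pmvk, enzymes of the mevalonate pathway that leads to cholesterol, rose by 1.72 and 1.64. Prxl2b, a prostaglandin synthase of the peroxiredoxin-like family, rose by 1.95, and Zswim7, a partner of recombination proteins, by 1.91. Rps3a1 rose by 1.72, but this ribosomal protein gene has near-identical copies on the array, so that its own share of the signal is uncertain. To TA M3 alone the differences were smaller, at 0.85 for Psmb1, 1.14 for Pomp, 0.92 for Ndufb9 and 1.19 for Fdps, and of these Pomp and Fdps kept their calls (adjusted p = 0.0355 and 0.0455).

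The calls least affected by any 1 mouse were mostly smaller. Outside placeholder names, repeated families and small RNAs, 21 genes kept their call in all 9 fits that left out 1 mouse, 18 higher and 3 lower in EDL, and they are described here after their values were seen. Stmn1 encodes stathmin, a protein that destabilises microtubules in growing axons and that has been studied as a modifier of SMA in mice. It read 11.08, 11.12 and 11.16 in EDL and 10.16, 10.06 and 9.99 in TA. The pools did not overlap, and TA M3 was the lowest of the TA arrays rather than the nearest to EDL. The difference was 1.05 (SE 0.055, adjusted p = 0.00238), and 1.13 to TA M3 alone (adjusted p = 0.0222). Its highest adjusted p when 1 mouse was left out was 0.0291.

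Cstb, which encodes cystatin B, an inhibitor of lysosomal cathepsins, read 12.67, 12.63 and 12.85 in EDL and 11.04, 11.54 and 11.43 in TA (difference 1.38, SE 0.13, adjusted p = 0.00866). Wfs1, a membrane protein of the endoplasmic reticulum that is mutated in Wolfram syndrome, read 13.47, 13.64 and 13.75 in EDL and 12.53, 12.49 and 12.80 in TA (difference 1.01, SE 0.10, adjusted p = 0.00926). Nfu1, which delivers iron-sulphur clusters to mitochondrial enzymes, differed by 0.80 (SE 0.084, adjusted p = 0.00962). To TA M3 alone these differences were 1.29, 0.82 and 0.69, each still called (adjusted p = 0.0277, 0.0494 and 0.0393). Fnta, a subunit of the enzymes that attach lipid anchors to proteins, differed by 0.80 from the TA mean and by the same amount from TA M3. With the EDL and TA arrays alone setting the spread, the adjusted p was 0.0631 for Stmn1 and Cstb and 0.0636 for Wfs1, Nfu1 and Fnta.

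**Figure D3:**
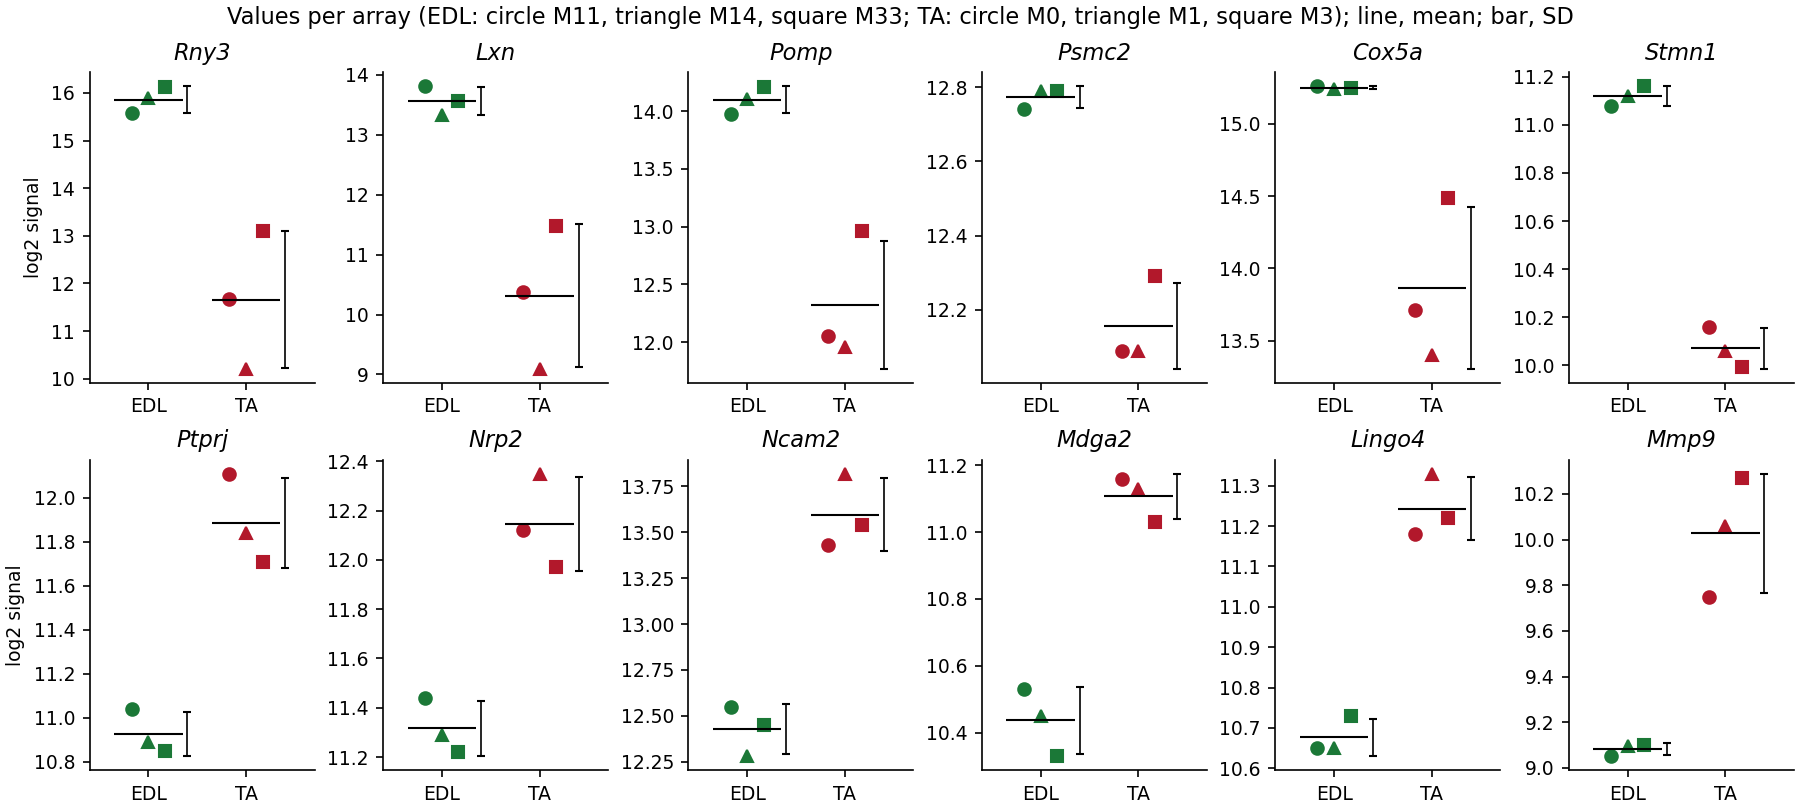
Each panel plots the log2 signal of 1 gene on the 3 EDL arrays (green) and the 3 TA arrays (red), with a line at the mean and a bar for the SD beside each pool; the y axes differ and do not start at 0. For Rny3, Lxn, Pomp and Cox5a the square of TA M3 lies nearest to EDL, while for Stmn1 the square is the TA value farthest from EDL and for Lingo4 it lies between the other TA values.

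The proteasome degrades proteins tagged with ubiquitin, in a barrel-shaped core fed by a regulatory cap. Of its 40 measured genes, 17 were higher in EDL and 0 were lower, with a median difference of 1.01, against 4.76% of all named genes higher and a median of -0.0035. A further 19 had EDL values above all TA values without passing the test, so that 36 of the 40 did not overlap in that direction (14.7% of all named genes). The higher pool mean was above 10.2 in 32 of the 40, against 4002 of all 30098 named genes. Psmc2, an ATPase of the cap and 1 of the 21 genes that held without any 1 mouse, read 12.74, 12.79 and 12.79 in EDL and 12.09, 12.09 and 12.29 in TA (difference 0.62, SE 0.061, adjusted p = 0.00881, and 0.48 to TA M3, adjusted p = 0.0267). Psmc5, another ATPase of the same ring, read 13.85, 13.87 and 13.88 in EDL and 12.27, 12.48 and 13.08 in TA (difference 1.26, SE 0.18, adjusted p = 0.0193). With TA M3 as the only TA array the median difference of the list was 0.43 and 7 genes were called higher. The mean level of the 40 genes fell short of EDL by 1.13 on TA M0 and 1.18 on TA M1 but by 0.42 on TA M3.

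Chaperonins fold newly made proteins, actin and tubulin above all. Of 24 chaperonin, prefoldin and heat shock genes, 8 were higher in EDL and 0 lower, with a median difference of 0.84 (0.31 to TA M3, 2 called). They included Cct5 (0.87, SE 0.14, adjusted p = 0.0233) and Tcp1 (1.03) of the chaperonin ring, Pfdn2 (0.89) of prefoldin, which hands actin and tubulin to that ring, and Hspb1 (0.58), a small heat shock protein. Tcp1 and Hspb1 had means below 10.2 in both pools.

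Genes of these groups often share short promoter elements, so the promoters were searched on both strands for 3 sequences, GCGCATGC (bound by NRF1-type factors), CCGGAAGT (ETS-type) and AAGATGGC (YY1-type). The window was 250 bases before to 50 after the RefSeq start (GRCm38.p6). At least 1 of the 3 sequences was found in 23.1% of the 467 protein-coding genes higher in EDL that had a promoter entry, in 9.29% of 140 lower in EDL and in 11.7% of all 15469. The ETS-type sequence was in 12.4%, 2.86% and 5.43% of these sets, and the YY1-type sequence in 7.28%, 2.86% and 3.30%. The share with any of the 3 was 27.3% for the proteasome (9 of 33 promoters), 31% for complex I (9 of 29) and 41.5% for the mitochondrial ribosome (27 of 65), and 0 of 45 synaptic adhesion genes had one. These shares are descriptions without a test, and a match is not evidence of binding. The median G+C content was 58.7% for genes higher in EDL, 64.2% for genes lower in EDL and 57.0% for all. The median number of CG pairs per promoter was 20, 21 and 14 in the same order. The sets were not matched for CG pairs or for signal. Promoters of 3 genes named here are shown because each holds a searched sequence, in capitals. Psmc2 (chr5:21785025-21785324, plus strand) holds the ETS-type sequence on the opposite strand, Psmc5 (chr11:106255935-106256234, plus strand) the NRF1-type and YY1-type sequences, and Atp5l (chr9:44920693-44920992, minus strand), a subunit of ATP synthase, the NRF1-type sequence on the opposite strand.
Psmc2: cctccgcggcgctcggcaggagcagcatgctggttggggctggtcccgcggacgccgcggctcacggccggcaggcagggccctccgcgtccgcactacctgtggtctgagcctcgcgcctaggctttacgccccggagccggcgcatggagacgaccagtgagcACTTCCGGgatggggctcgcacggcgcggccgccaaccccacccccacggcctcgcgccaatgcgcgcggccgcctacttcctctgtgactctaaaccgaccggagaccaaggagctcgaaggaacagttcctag
Psmc5: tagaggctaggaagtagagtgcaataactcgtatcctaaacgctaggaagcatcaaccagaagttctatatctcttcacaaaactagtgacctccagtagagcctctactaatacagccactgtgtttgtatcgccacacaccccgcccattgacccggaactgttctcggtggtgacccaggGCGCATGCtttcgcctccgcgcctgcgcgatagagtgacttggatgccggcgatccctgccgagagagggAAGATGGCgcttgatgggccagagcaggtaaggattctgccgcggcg
Atp5l: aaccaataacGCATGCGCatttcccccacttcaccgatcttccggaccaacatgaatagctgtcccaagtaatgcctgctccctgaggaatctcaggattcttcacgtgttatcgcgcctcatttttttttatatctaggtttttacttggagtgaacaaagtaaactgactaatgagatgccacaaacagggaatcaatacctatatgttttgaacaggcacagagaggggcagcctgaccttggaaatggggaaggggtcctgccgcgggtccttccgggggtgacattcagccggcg

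The respiratory chain passes electrons through complexes I to IV of the inner mitochondrial membrane, and ATP synthase uses the resulting proton gradient. Complex I, the entry point, had 14 of 32 measured nuclear genes higher in EDL and 0 lower, with a median difference of 0.98. Complexes II to IV had 5 of 26 higher (median 1.03) and ATP synthase 4 of 17 (median 0.83), again with 0 lower. Ndufv1, part of the NADH-oxidising module of complex I, read 12.65, 12.70 and 13.05 in EDL and 11.66, 11.53 and 12.16 in TA (difference 1.02, SE 0.17, adjusted p = 0.0249). Cox5a, a subunit of complex IV, read 15.26, 15.24 and 15.25 in EDL and 13.71, 13.40 and 14.49 in TA (difference 1.39, SE 0.26, adjusted p = 0.0317). Atp5l, whose promoter is printed above, differed by 0.99 (SE 0.19, adjusted p = 0.0364). In 30 of the 32 complex I genes, 22 of the 26 genes of complexes II to IV and all 17 of ATP synthase the EDL values lay above all TA values. The same held for 14.7% of all named genes.

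None of these genes was called with TA M3 as the only TA array, where the medians were 0.51, 0.29 and 0.26. On TA M0 and TA M1 the mean of the complex I genes lay 1.29 and 1.34 below EDL, and on TA M3 0.48 below. The calls of Cox5a, Ndufv1 and Atp5l were lost in 8, 7 and 8 of the 9 fits that left out 1 mouse. Another 4 genes that the study followed up missed the adjusted threshold. Their differences were those of Pgk1 (1.79, SE 0.41, adjusted p = 0.0541), Uqcrq (1.54, SE 0.37, adjusted p = 0.0610), Ndufa1 (1.68, SE 0.43, adjusted p = 0.0712) and Ndn (1.05, SE 0.33, adjusted p = 0.119). Before adjustment the limma p-values, in the same order, were 0.0031, 0.0039, 0.0056 and 0.015. The paper describes a P threshold of 0.05 for its first filter and states no adjustment for the number of tests. Its threshold and the one used here are therefore unlike. Its qPCR, on part of the amplified RNA, found Ndufa1, Uqcrq and Cox5a higher in the resistant neurons. Pgk1 makes ATP in glycolysis, Uqcrq and Ndufa1 belong to complexes III and I, and Ndn encodes necdin, which is linked to mitochondrial biogenesis. To TA M3 alone the differences were 0.69 for Pgk1, 0.58 for Uqcrq, 0.51 for Ndufa1 and 0.15 for Ndn. The adjusted threshold was passed by Pgk1 and Uqcrq under both kinds of array weights, centring and quantile normalization. Ndufa1 passed it under both kinds of weights and Ndn under 1 weight per array. All 4 also passed it with the filter on dim clusters and without TA M3. That filter keeps a cluster through the pool where it is high and adjusts over 6166 clusters, and TA M3 is the TA array nearest to EDL in these genes. Neither setting is therefore separate support for the calls. Ndufa1 shows the pattern of the group, with 15.34, 15.21 and 15.40 in EDL, 14.81 on TA M3, and 13.06 and 13.04 on TA M0 and TA M1.

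Other mitochondrial functions were less uniform. Of 74 mitochondrial ribosomal protein genes 14 were higher in EDL (median 0.51), among them Mrps25 (0.55, SE 0.041, adjusted p = 0.00699), which kept its call without any 1 mouse, and Mrpl47 (0.68). Both were also called against TA M3 alone (adjusted p = 0.0283 and 0.0491), as were 6 of the 74 in all. Mrps25 lay below 10.2 in both pools. Protein import had 4 of 32 higher (median 0.44), the tricarboxylic acid cycle 3 of 18 (median 0.50, Mdh1, Mdh2 and Idh3b) and glycolysis 1 of 14, the isomerase Tpi1 (1.05, adjusted p = 0.0468). Of all named genes 4.76% were called higher. To TA M3 alone the medians were 0.17 for import, 0.11 for the cycle and 0.20 for glycolysis (0.49 to the TA mean), with 0, 1 and 0 genes called and Tpi1 at 0.49 (adjusted p = 0.152). Of 46 mitochondrial carriers of the Slc25 family, which move metabolites across the inner membrane, 0 were called, with a median of 0.06. EDL values lay above all TA values in 10 and below them in 3 (14.7% and 8.34% of all named genes).

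Ribosomal proteins and translation factors carry out protein synthesis. Of 44 cytosolic ribosomal protein genes, 23 were higher and 0 lower (median 0.80), and 8 were called higher against TA M3 alone (median 0.55). Rpl7 read 9.30, 9.30 and 9.31 in EDL and 8.53, 8.48 and 8.75 in TA (difference 0.72, SE 0.076, adjusted p = 0.00992), although both pools lay below 10.2 and many ribosomal genes have processed copies that share probes. Of 45 translation factors, 16 were higher and 0 lower (median 0.42), and against TA M3 alone 5 were called higher and 1 lower (median 0.22). These were chiefly subunits of initiation factor 3, which places the small ribosomal subunit on the messenger RNA: Eif3i differed by 1.38 (SE 0.22, adjusted p = 0.0237, and 0.93 to TA M3, adjusted p = 0.0244) and Eif3h by 1.08 (SE 0.16, adjusted p = 0.0195). Of 18 Sm and LSm proteins, the rings that SMN helps to build on splicing RNAs, 3 were higher, Snrpg (1.34), Lsm4 (1.24) and Lsm6 (0.84), with Lsm4 and Lsm6 at pool means below 10.2. Among 11 genes of the SMN complex and SMA modifiers Stmn1 was the only call, and Smn1 itself differed by -0.03 (SE 0.046, adjusted p = 0.745).

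Neurofilaments and tubulins build the axonal cytoskeleton. Of 19 such and related genes, 5 were higher in EDL and 1 was lower (median 0.60), and to TA M3 alone the median was 0.23. EDL values lay above all TA values in 14 and below them in 2 (14.7% and 8.34% of all named genes). Tubb2b, a tubulin of growing neurons, read 11.58, 12.14 and 12.18 in EDL and 10.86, 10.22 and 10.95 in TA (difference 1.29, SE 0.23, adjusted p = 0.0279, and 1.01 to TA M3, adjusted p = 0.128). Tuba1a rose by 0.34 (SE 0.060, adjusted p = 0.0278), and by 0.34 to TA M3 alone, where it was not called. Map2, which binds microtubules in dendrites, was lower in EDL by 0.37 on the log2 scale (SE 0.057, adjusted p = 0.0214). Gap43, a growth-cone protein, rose by 0.69 (adjusted p = 0.0354) and was among 5 of 18 axon injury and stress genes called higher, with Ddit3 (0.59), Hspb1 (0.58), Sox11 (0.62) and Phlda3 (0.36). Of these 5, only Ddit3, a transcription factor of endoplasmic reticulum stress, was also called against TA M3 alone (0.60, adjusted p = 0.0496). Ddit3, Hspb1 and Sox11 had pool means below 10.2.

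**Figure D4:**
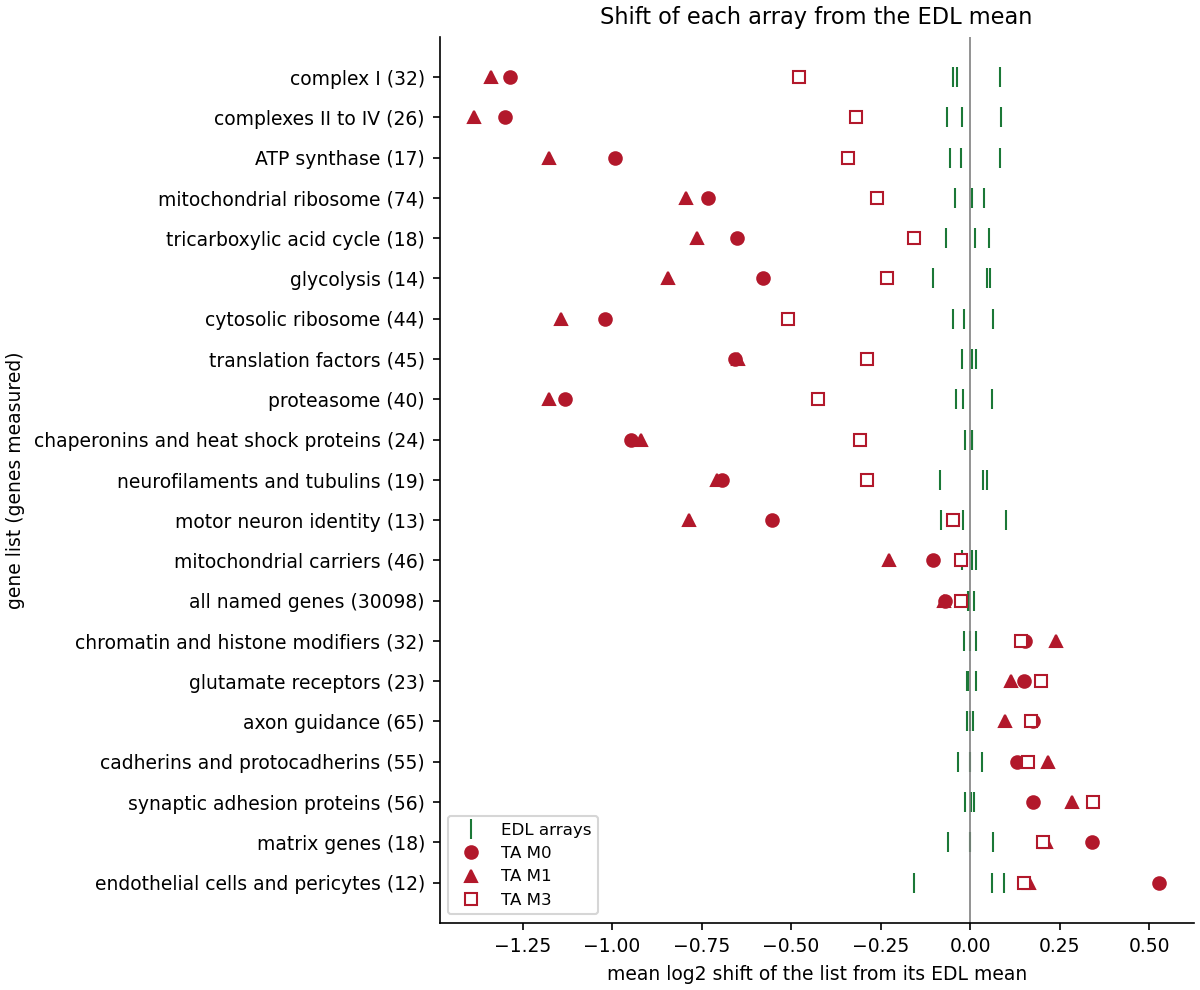
Points give, for each gene list (y axis, with the number of genes measured), the mean log2 shift of each TA array from the EDL mean (x axis), and green ticks the 3 EDL arrays. In the lists from complex I to the tubulins TA M0 and TA M1 lie 0.58 to 1.39 below EDL and TA M3 0.16 to 0.51 below, whereas in the synaptic adhesion and axon guidance lists TA M3 lies as far above EDL as the other TA arrays or farther than one of them.

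Several lists of cell-surface proteins had calls only in the direction of TA. Cell adhesion molecules hold axons and synapses together, and guidance receptors steer growing axons. Of 56 synaptic adhesion genes, 9 were lower in EDL and 0 higher, with a median difference of -0.25, against 0.964% of all named genes lower. The higher pool mean was above 10.2 in 22 of the 56, against 4002 of all 30098 named genes. Unlike the EDL-high groups, the median to TA M3 alone was larger, at -0.32, and 5 genes were called in that fit. Ncam2, a neural cell adhesion molecule, read 12.55, 12.28 and 12.45 in EDL and 13.43, 13.82 and 13.54 in TA, with no overlap (difference -1.17, SE 0.20, adjusted p = 0.0247). Against TA M3 alone it was -1.11 but not called (adjusted p = 0.141). The other members were Lingo2 (-0.91), Tenm1 (-0.89), Cntn3 (-0.64), Lingo4 (-0.57), Slitrk3 (-0.50), Nlgn3 (-0.50), Nfasc (-0.44) and Cntnap4 (-0.42), of which Lingo2, Tenm1, Cntn3, Slitrk3 and Cntnap4 lay below 10.2.

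Lingo4, a leucine-rich repeat membrane protein, and Mdga2, an inhibitor of neuroligin-neurexin binding, were, with Hoxc5, the 3 falls among the 21 genes that kept their call without any 1 mouse. Lingo4 read 10.65, 10.65 and 10.73 in EDL and 11.18, 11.33 and 11.22 in TA (difference -0.57, SE 0.056, adjusted p = 0.00881). Mdga2 read 10.53, 10.45 and 10.33 in EDL and 11.16, 11.13 and 11.03 in TA (difference -0.67, SE 0.063, adjusted p = 0.00824). Both were called against TA M3 alone, at -0.54 (adjusted p = 0.0392) and -0.59 (adjusted p = 0.0494). Of the other adhesion genes, Dscam (-0.76, SE 0.10, adjusted p = 0.0158) and Cadm1 (-0.86, SE 0.19, adjusted p = 0.0492) were called in both fits. Of 55 cadherins and protocadherins 2 were lower, Pcdh7 (-0.61) and, at means below 10.2, Cdh7 (-0.28), though 20 had EDL values below all TA values (8.34% of all named genes).

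Axon guidance genes had 6 of 65 lower in EDL and 0 higher, with a median of -0.09 that turned to 0.008 after quantile normalization. Nrp2, a receptor for class 3 semaphorins, read 11.44, 11.29 and 11.22 in EDL and 12.12, 12.35 and 11.97 in TA (difference -0.83, SE 0.11, adjusted p = 0.0162). Robo1, the receptor for Slit proteins, differed by -0.64 (SE 0.14, adjusted p = 0.0483) and by -0.59 to TA M3 (adjusted p = 0.0283). The other 4 were Sema3d (-0.61), Neo1 (-0.32), Sema4b (-0.32) and Plxna4 (-0.31), with Sema3d and Sema4b at pool means below 10.2. Of 20 receptor tyrosine phosphatases, which remove phosphate from proteins at contact sites, Ptprj (-0.96, SE 0.11, adjusted p = 0.0107) and Ptprg (-0.58, SE 0.077, adjusted p = 0.0155) were lower. Ptprj read 11.04, 10.89 and 10.85 in EDL and 12.11, 11.84 and 11.71 in TA and kept its call against TA M3 alone (-0.78, adjusted p = 0.0403).

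The largest falls of all by the naming rule were Dgkk, a kinase of the membrane lipid diacylglycerol (-1.45, SE 0.21, adjusted p = 0.0194), and Uck2, which phosphorylates uridine and cytidine (-1.31, SE 0.25, adjusted p = 0.0339). Dgkk read 10.81, 11.11 and 11.32 in EDL and 12.37, 12.54 and 12.68 in TA, so TA M3 was the highest of all. Other large falls were those of Parm1 (-1.04) and Vxn (-0.86). Neither Dgkk nor Uck2 was called against TA M3 alone (-1.60 and -1.16, adjusted p = 0.0951 and 0.121).

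Receptors and channels set how a neuron responds to its inputs. Of 23 glutamate receptor genes, 4 were lower in EDL and 0 higher (median -0.15, and -0.23 to TA M3): Grin3a (-0.64, SE 0.11, adjusted p = 0.0272), Gria2 (-0.46), Gria3 (-0.46) and Grin2b (-0.39). Of 88 potassium channel genes, 2 were lower, Kcna2 and Kcnma1, and 1 was higher, Kcnmb4 (0.68, at means below 10.2), against 0.964% and 4.76% of all named genes. Kcna2, an axonal channel that repolarises the membrane, read 11.81, 11.78 and 11.79 in EDL and 12.13, 12.20 and 12.41 in TA (difference -0.45, SE 0.070, adjusted p = 0.0214, and -0.61 to TA M3, adjusted p = 0.0222). Of 39 sodium and calcium channel genes, Cacna1b, Cacna1c and Cacna1e were lower (-0.58, -0.35 and -0.53) and Scn9a was higher, with Cacna1c and Cacna1e at means below 10.2. Scn9a, a sodium channel better known from sensory neurons, read 8.67, 9.67 and 8.85 in EDL and 7.53, 6.99 and 7.26 in TA (difference 1.80, SE 0.26, adjusted p = 0.0194), all below 10.2. Gabbr2, a subunit of the GABA-B receptor, was the only call among 23 GABA and glycine receptor genes (-0.53, SE 0.095, adjusted p = 0.0287).

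Of 18 genes of the extracellular matrix and the perineuronal net, 3 were lower in EDL, the proteoglycans Vcan (-0.79, SE 0.13, adjusted p = 0.0257) and Acan (-0.66, SE 0.14, adjusted p = 0.0451) and the net protein Tnr (-0.51, SE 0.095, adjusted p = 0.0324). Vcan and Acan had means below 10.2 in both pools. Of these 3 only Acan was called against TA M3 alone (-0.93, adjusted p = 0.0429). Of 32 chromatin and histone modifiers 5 were lower, Tet1 (-0.55), Kdm6b (-0.45), Chd3 (-0.39), Nsd1 (-0.37) and Setd2 (-0.31), and 0 higher, with 0 called against TA M3 alone and with Tet1, Kdm6b and Chd3 at means below 10.2. Tcf20, a nuclear coregulator outside the list, differed by -0.70 (SE 0.11, adjusted p = 0.0203) and kept its call there (-0.50, adjusted p = 0.0447).

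Hox genes set the position of a motor pool along the cord. Of 10 cervical and brachial Hox genes, 3 were lower in EDL: Hoxc5 (-1.22, SE 0.078, adjusted p = 0.00445), Hoxc6 (-1.01, SE 0.19, adjusted p = 0.0332) and Hoxb6 (-0.52, SE 0.096, adjusted p = 0.0312). Hoxc5 kept its call without any 1 mouse, but it read 4.69 to 4.86 in EDL and 5.93 to 6.10 in TA, below the median of the negative controls on every array (5.98 to 6.48). Hoxc6 read 9.11 to 9.27 in EDL and 9.76 to 10.51 in TA, on every array below the 95th percentile of its own negative controls. Hoxb6 had means below 10.2. To TA M3 alone Hoxc6 differed by -0.57 and Hoxb6 by -0.32, neither called (adjusted p = 0.144 for each). Of 10 lumbar Hox genes 0 were called, and Hoxc10, a gene of lumbar motor columns, read 12.68, 12.91 and 12.96 in EDL and 12.18, 12.47 and 12.78 in TA (adjusted p = 0.197). Among 18 motor column and pool factors Nkx6-2, a homeodomain protein of the ventral cord, was the only call (0.72, SE 0.12, adjusted p = 0.0257), at means below 10.2. The difference to TA M3 alone was smaller, at 0.47, and was not called. A single call of 18 is near the 4.76% of all named genes that were called higher.

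Protein-coding genes lower in EDL spanned more of the genome. The span of a gene from RefSeq had a median of 85.0 kb for the 176 lower in EDL, 10.9 kb for the 562 higher and 18.4 kb for all 19091. A span over 100 kb was found in 46.6% of the genes lower in EDL (82 genes), 4.27% of those higher (24 genes) and 11.7% of all. The share of genes called lower rose with each step of span, from 0.224% of genes up to 5 kb to 5.29% of the 907 over 200 kb. The share called higher was 3.64% and 4.12% in the 2 shortest bins and 0.992% in the longest. With TA M3 as the only TA array the share called lower still rose, from 0.274% to 3.86%, while the share called higher was 1.22% in the shortest bin and 0.331% in the longest. Among genes whose higher pool mean was above 10.2, 22.9% of those up to 5 kb were higher in EDL and 0.395% lower. Over 200 kb 0.461% were higher and 12% lower. A gene can pass this filter through the pool where it is high, so these shares are not separate support for the pattern. Signal level and the rise of negative-control signal on the TA arrays move along with this pattern, and their part in it was not tested. The gene lists were compared with all named genes and not with genes of like span or signal. The part of span and signal in the shares of the lists was not tested.

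**Figure D5:**
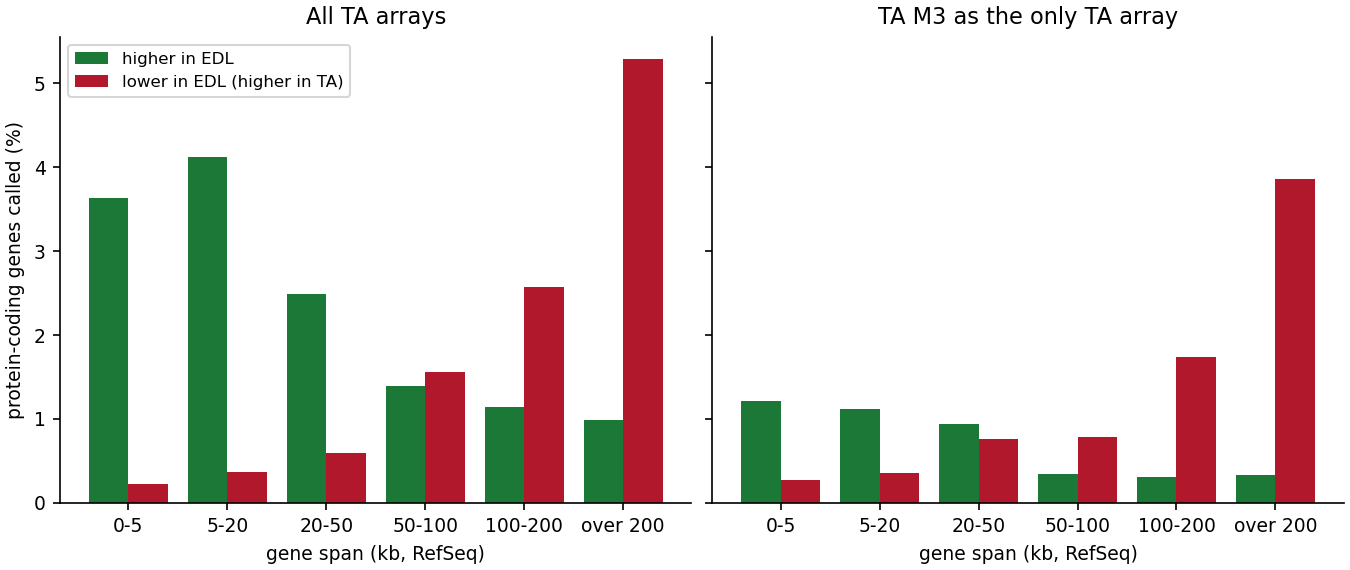
Bars give the percent of protein-coding genes called higher (green) or lower (red) in EDL at an adjusted p under 0.05, by genomic span in kb, with all TA arrays (left) and with TA M3 as the only TA array (right). The share called lower rises to 5.29% on the left and 3.86% on the right in genes over 200 kb.

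Among small nucleolar, small nuclear and micro RNAs 72 genes were lower in EDL and 22 higher. Of 915 small nuclear RNA genes 11 were lower and 11 higher, against 0.964% and 4.76% of all named genes. Of 955 small nucleolar RNA genes, 45 were lower and 6 higher, and several with different names had identical values, so that they are not separate measurements. Of 607 miRNA genes, 16 were lower and 5 higher. Of the 16, 5 lie on chromosome 12 between 109 and 110 Mb (GRCm38.p6), an imprinted region whose miRNAs are cut from long maternal transcripts. Of the 42 miRNA genes measured there 11.9% were lower in EDL, against 1.95% of the 565 elsewhere, and this window was chosen after the values were seen. Mir341 read 11.67, 11.68 and 11.27 in EDL and 13.27, 13.45 and 13.02 in TA (difference -1.71, SE 0.25, adjusted p = 0.0193). Mir493 read 10.14, 9.41 and 9.83 in EDL and 11.96, 11.40 and 10.95 in TA (difference -1.64, SE 0.30, adjusted p = 0.0305). Mir665 read 7.97, 8.26 and 8.07 in EDL and 11.82, 11.41 and 9.44 in TA (difference -2.79, SE 0.58, adjusted p = 0.0415). To TA M3 alone the differences were -1.48, -1.16 and -1.34, none of them called (adjusted p = 0.141, 0.184 and 0.124). Of the other 2 in the window, Mir544 (-1.24, adjusted p = 0.0496) lost its call there (adjusted p = 0.311) and Mir1188 (-0.92, adjusted p = 0.0253, pool means below 10.2) kept it, at -1.24 (adjusted p = 0.0479). The values are of clusters named for the miRNA genes and do not give the level of either mature arm. Both mature arms of Mir493, Mir665 and Mir341 are given from RefSeq (GRCm38.p6, plus strand) to identify them. The seed, bases 2 to 8, is in capitals. The 6 seeds all differ.
mmu-miR-493-5p: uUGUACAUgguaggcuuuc
mmu-miR-493-3p: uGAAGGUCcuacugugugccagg
mmu-miR-665-5p: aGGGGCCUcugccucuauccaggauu
mmu-miR-665-3p: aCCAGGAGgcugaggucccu
mmu-miR-341-5p: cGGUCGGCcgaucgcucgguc
mmu-miR-341-3p: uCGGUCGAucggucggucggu

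The labelled cell type was checked with its markers. Of 13 MN identity genes 10 were above 10.2 in the pool with the higher mean, and Chat, the enzyme that makes acetylcholine, read 13.45 to 13.67 in EDL and 12.94 to 13.59 in TA (adjusted p = 0.234). Isl1, Isl2 and Mnx1, transcription factors that define MNs in the embryo, were below 10.2 on every array. The mean of the 13 genes lay 0.55 and 0.79 below EDL on TA M0 and TA M1 but 0.05 below on TA M3, and the median difference of 0.37 turned to -0.01 against TA M3 alone. Prph, the peripherin filament of MNs, read 14.69 to 15.15 in EDL, 14.60 on TA M3, and 13.07 and 12.94 on TA M0 and TA M1 (adjusted p = 0.0873). Ntrk3, the receptor for neurotrophin 3, was the only call (-0.42, SE 0.091, adjusted p = 0.0452). Of 4 fast alpha MN genes Mmp9, a protease found in fast MNs that are lost early in MN disease models, was lower in EDL. It read 9.05, 9.10 and 9.10 in EDL and 9.75, 10.06 and 10.27 in TA (difference -0.94, SE 0.15, adjusted p = 0.0241), at pool means below 10.2, and the value against TA M3 alone was -1.18 (adjusted p = 0.0518). Chodl, another fast MN gene, differed by -0.49 (adjusted p = 0.0938). Of the slow and gamma MN genes, neuropeptides, immediate early genes and nuclear-retained RNAs (10, 23, 15 and 8 genes) 0 were called. Of 13 calcium buffers Necab1 (1.04) and S100a6 (0.58) were higher, both at means below 10.2, and Ncs1 (-0.40) was lower, and of 24 proton pump genes Atp6v1g1 (1.16) was higher. Over all named genes 4.76% were called higher and 0.964% lower.

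Transcripts of neighbouring cells were present on all 6 arrays. The mean of 10 oligodendrocyte genes was 12.80 to 12.88 in EDL and 12.57 to 12.99 in TA, with 9 of them above 10.2 in the higher pool, and Mbp, the main myelin protein, read 14.59 to 14.99 over all 6. Of these, Ermn was higher (0.84) and Ugt8a lower in EDL (-0.45). The mean of 12 endothelial and pericyte genes was 8.11 to 8.36 in EDL and 8.42 to 8.80 in TA. In 8 of the 12 EDL values were below all TA values (8.34% of all named genes), and 0 of these were called. Cldn5, a tight junction protein of vessels, was called higher (1.27, at means below 10.2). Among 7 oligodendrocyte precursor genes Gpr17 was lower (-1.19, SE 0.26, adjusted p = 0.0475), and the list mean was 8.16 to 8.33 in EDL, 8.78 on TA M0, 8.58 on TA M1 and 8.36 on TA M3. Among 9 astrocyte genes Slc1a2, the main glutamate transporter, was lower (-0.43, SE 0.091, adjusted p = 0.0438), at list means of 9.72 to 10.03 in EDL and 9.88 to 10.21 in TA. Of the 9, 2 had a higher mean in EDL, among them Aldoc, whose pools did not overlap (0.90, SE 0.21, adjusted p = 0.0520). The list mean lay 0.30 above EDL on TA M0, 0.005 above on TA M1 and 0.03 below on TA M3. Slc4a4 and Jam2, genes of the named falls that glia and vessels also express, differed by -0.78 and -0.80. Microglial, meningeal, interneuron, erythrocyte and muscle markers had 0 calls, and 1 of these 36 genes, the glycine transporter Slc6a5, was above 10.2. The part of these cells in the adhesion, matrix and guidance differences was not tested.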

How the data were processed

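Laser-captured, amplified RNA of 9 mice was hybridised to 1 Affymetrix array each. The authors deposited log2 signals per transcript cluster. Their methods name RMA after signal space transformation (sst-RMA) in Expression Console, the submitters' processing notes name RMA and Transcriptome Analysis Console, without versions. RMA-type quantile scaling can hide array-wide shifts. Of 72688 probe sets, 6732 controls were left out and 65956 clusters were tested, 30638 of them with 1 gene symbol. Symbols, positions and promoters came from the platform annotation and RefSeq (GRCm38.p6). Of several clusters of 1 gene, only the brightest on average was used. Among 427 genes with several clusters, 122 had clusters whose differences were of opposite sign.

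EDL minus TA was tested with limma (3.58.1, R 4.3.3), with 1 mean per pool over all 9 arrays and a shared spread, two-sided, with Benjamini-Hochberg adjustment over all clusters and a threshold of 0.05. Nothing was filtered. The number of arrays, 3 per pool, limits the precision, and p-values measure the spread between mice. The script was tested on simulated data with 1 spread per cluster for all arrays. That test does not cover the larger scatter of the TA arrays.

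The members and gene lists were chosen with earlier results of these data known. Genes named are the 12 largest rises and 12 largest falls in EDL with regular names, no overlap between pools and a higher pool mean above the 95th percentile of the negative controls (10.2), the 6 of each also called without TA M0 and TA M1, clusters called with the EDL and TA arrays alone, up to 4 genes per list by moderated t, and genes the study followed up. Other members of a list are named where all its calls are given, and the miRNAs and the genes that held without any 1 mouse were chosen after their values were seen. Gapdh, one of the genes followed up, is not analysed here. Alternatives were array weights, an unmoderated model, a trended and robust prior, centring, quantile normalization, a filter on dim clusters, the EDL and TA arrays alone, and leaving out mice.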

Additional observations from a re-analysis of the deposited data

How the results depend on the processing

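The number of differing clusters, 3351 (1884 higher and 1467 lower in EDL), was 4 (3 and 1) with the EDL and TA arrays alone, 454 (315 and 139) in an unmoderated model, 5033 (3176 and 1857) after quantile normalization and 1199 (691 and 508) without TA M0 and TA M1. Leaving out 1 mouse gave between 201 and 10470 clusters, 132 to 4750 higher and 69 to 5720 lower, the lowest without EDL M33 and the highest without TA M3. Of 115 called genes named in the text, most lost their call without TA M0 and TA M1, and 20 were also called in the unmoderated model. None changed direction under an alternative that tested it, and the filter on dim clusters tested 82 of them. The genes were called on these same arrays, so a kept direction is not separate support. The median difference over all clusters was -0.04 as deposited and 0.04 after centring. The difference of Smn1 turned to 0.054 after centring, 0.017 after quantile normalization, 0 without TA M0 and TA M1, and ranged from -0.060 to 0.015 when 1 mouse was left out, and that of Chat to -0.015 without TA M0 and TA M1. Centring turned the list medians of potassium channels (0.077), sodium and calcium channels (0.053), GABA and glycine receptors (0.0013) and receptor tyrosine phosphatases (0.010), and quantile normalization those of potassium channels (0.038), axon guidance (0.0080), receptor tyrosine phosphatases (0.0092), astrocytes (0.014) and oligodendrocytes (-0.0667). The median of motor column factors turned to -9.024e-05 with array weights and -0.076 with the filter on dim clusters, and ranged from -0.030 to 0.038 when 1 mouse was left out, and that of oligodendrocytes turned to -0.11 with the filter and ranged from -0.021 to 0.14. The median of MN identity genes turned to -0.015 without TA M0 and TA M1. The cause of these changes was not tested. No paired analysis was possible because no mouse number occurs in more than 1 pool. The higher negative-control signal on TA M0 and TA M1 limits what can be read from dim genes.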
